A study of Mus musculus with 9 samples.

Results

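The second postnatal week of mouse skin was examined by comparing keratinocytes of postnatal day 14 with keratinocytes of postnatal day 7. The comparison used 6 of the 9 libraries of a series that also holds day 1, with 3 libraries per day. Libraries entered the comparison by the day in their column headers and are numbered as there, 4 to 6 on days 1 and 14 and 1 to 3 on day 7. All 9 came from C57BL/6 mouse skin, with no treatment or altered allele named in the labels. By the labels the groups share strain, tissue and sort and differ in age. By their sex-linked transcripts they differ in sex as well: day 7 libraries read as male, day 14 libraries as female and day 1 libraries as mixed. Per the labels' protocols, live cells negative for the leukocyte marker CD45.2 were sorted and their polyadenylated RNA was sequenced. The sort removes leukocytes and dead cells but picks no keratinocyte protein, so other skin cells could enter. Day 1 served to ask which genes moved for the first time in the second week. The headers call the earliest libraries day 0, which was taken as the day 1 of the titles. The labels used here name neither separate animals nor pools within a day, so p-values reflect the scatter among these libraries alone, and that scatter may be technical. Only autosomal genes were counted.

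Keratinocytes of the basal layer divide, leave the basement membrane and build keratins, a cornified envelope and barrier lipids on their way to the surface. In newborn mice the first coat of hair grows out during the first weeks while the epidermis, thick at birth, becomes thinner. Transcription factors set which genes a cell reads, receptors take in signals from neighbouring cells, secreted proteins send signals or build the matrix, and enzymes make or break down lipids, sugars and proteins. Genes were therefore ordered by these 4 roles, each a class of gene families found by symbol patterns that do not cover every such gene.

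Total counts ran from 50670191 to 62970768 per library. Values are given as CPM, a gene's read counts scaled by the size of the library after TMM normalization. They depend on transcript length, so levels are compared for 1 gene between days and not between genes. A gene is said to have risen or fallen where edgeR's quasi-likelihood F test, adjusted by Benjamini-Hochberg over all 14507 genes tested, gave a value under 0.05. Of 14011 autosomal genes tested, 9496 (67.8%) changed from day 7 to day 14: 4565 (32.6%) rose and 4931 (35.2%) fell, so 48.1% of the changes were rises. That share was 51.0% with RLE size factors and 34.9% with library totals alone. Changes of at least 2-fold were fewer, with 1561 rises (11.1%) and 1082 falls (7.72%). A change was called first in this step under 3 conditions together. The gene changed at least 2-fold from day 7 to day 14, its step from day 1 to day 7 failed the test and was under 0.5 on the log2 scale, and the difference between its 2 steps passed the test, as it did in 7266 autosomal genes (51.9%). By this rule 372 genes (2.66%) first rose and 250 (1.78%) first fell.

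The first rises had a median log2 fold change of 1.53, from 1.002 to 4.85, and their median level went from 7.36 to 25.02 CPM. The first falls had a median of -1.33, from -1.01 to -7.77, and their median level went from 8.03 to 2.88 CPM. In each of these 622 genes the 3 libraries of day 14 lay wholly above or wholly below those of day 7, as they did in 35.4% (above) and 37.5% (below) of all autosomal genes tested. The rule used this contrast, so nothing is read from that count. At the edge of the rule, Klf2 entered with a log2 fold change of 1.002 and Fbxo34 stayed out with 0.997. On the falling side Ptn entered with -1.01 and Cpne5 stayed out with -0.9995. Being first depends on a small step before day 7. When each of the 9 libraries was left out in turn, 176 of the 372 first rises and 136 of the 250 first falls met the rule every time. Their change from day 7 to day 14 held more widely, in 371 and 249 of them. For first movers described below, libraries without which a gene left the rule, or their number, are given where there were any.

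The 5 keratinocyte markers summed to 44247 to 46847 CPM at day 7 and 33356 to 34880 CPM at day 14. The basal keratins Krt5 and Krt14 fell, by 0.53 and 0.57 on the log2 scale, the suprabasal keratin Krt1 fell by 0.91, and Trp63, the transcription factor of stratified epithelia, rose by 0.17. Krt10 did not pass (log2 fold change 0.35, adjusted p = 0.106), but passed with DESeq2 (0.0372), with days 7 and 14 alone (0.000633) and without day 1 library 4 (0.000242). All 6 melanocyte genes fell, from a summed 101 to 122 CPM at day 7 to 4.04 to 8.62 CPM at day 14, after a fall from 358 to 387 CPM at day 1. All 5 leukocyte genes that could be tested rose, from a summed 0.929 to 1.52 CPM over the list of 8 to 5.27 to 6.63 CPM, while Ptprc, Cd3e and Lyz2 were at or near 0. Further lists fell in part: 2 of 3 Merkel cell genes (summed 1.39 to 1.70 CPM at day 7 and 0.239 to 0.358 at day 14), both sebocyte genes tested (1.01 to 2.18 and 0.298 to 0.622), 2 of 4 nerve and Schwann cell genes (6.00 to 7.37 and 1.79 to 2.30) and 2 of 3 erythroid genes tested (11.7 to 41.5 and 1.83 to 5.43). The endothelial Tek also fell and Krt31 of the hair cortex rose, while inner follicle (5 tested), muscle (2) and adipocyte (1) genes did not pass. The part of these cell types in the results below was not tested. Of 6 fibroblast genes 0 passed in either direction, with summed levels of 17.2 to 61.6 CPM at day 7 and 16.8 to 37.2 CPM at day 14. In such bulk samples, fewer cells of a type and less RNA per cell cannot be told apart. Sex markers changed too: Xist had 0 counts at day 7 and 2328 to 2682 CPM at day 14, and the Y-linked Ddx3y stood at 101 to 112 CPM at day 7 and 0 counts at day 14. Day 1 libraries each held both, at 861 to 1642 and 29.0 to 55.6 CPM, as pools of both sexes would. Day 1 is also the reference for a first move. Sex and age cannot be told apart in any result above or below, the counts of changed genes and first movers included. The headers of day 7 also differ in style, and a separate handling of those libraries cannot be told apart from age either.

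Immediate early genes, which cells switch on within minutes of a stimulus, also differed between the days. Of 14 immediate early and heat shock genes 9 rose, while the heat shock genes Hspa1a, Hspa1b and Hsph1 fell. Among all autosomal genes tested, 32.6% rose and 35.2% fell. Summed over the list, levels were 18287 to 22627 CPM at day 1, 23040 to 28090 CPM at day 7 and 36596 to 40150 CPM at day 14, with no member at 0. Fosb is itself on the list, with means of 1269.8 CPM at day 7 and 8478 CPM at day 14, so the sum is not separate from its rise. The part of the other list members in the rises of Fosb, Jund, Nr4a, Klf and other stimulus-responsive genes was not tested.

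**Figure D1:**
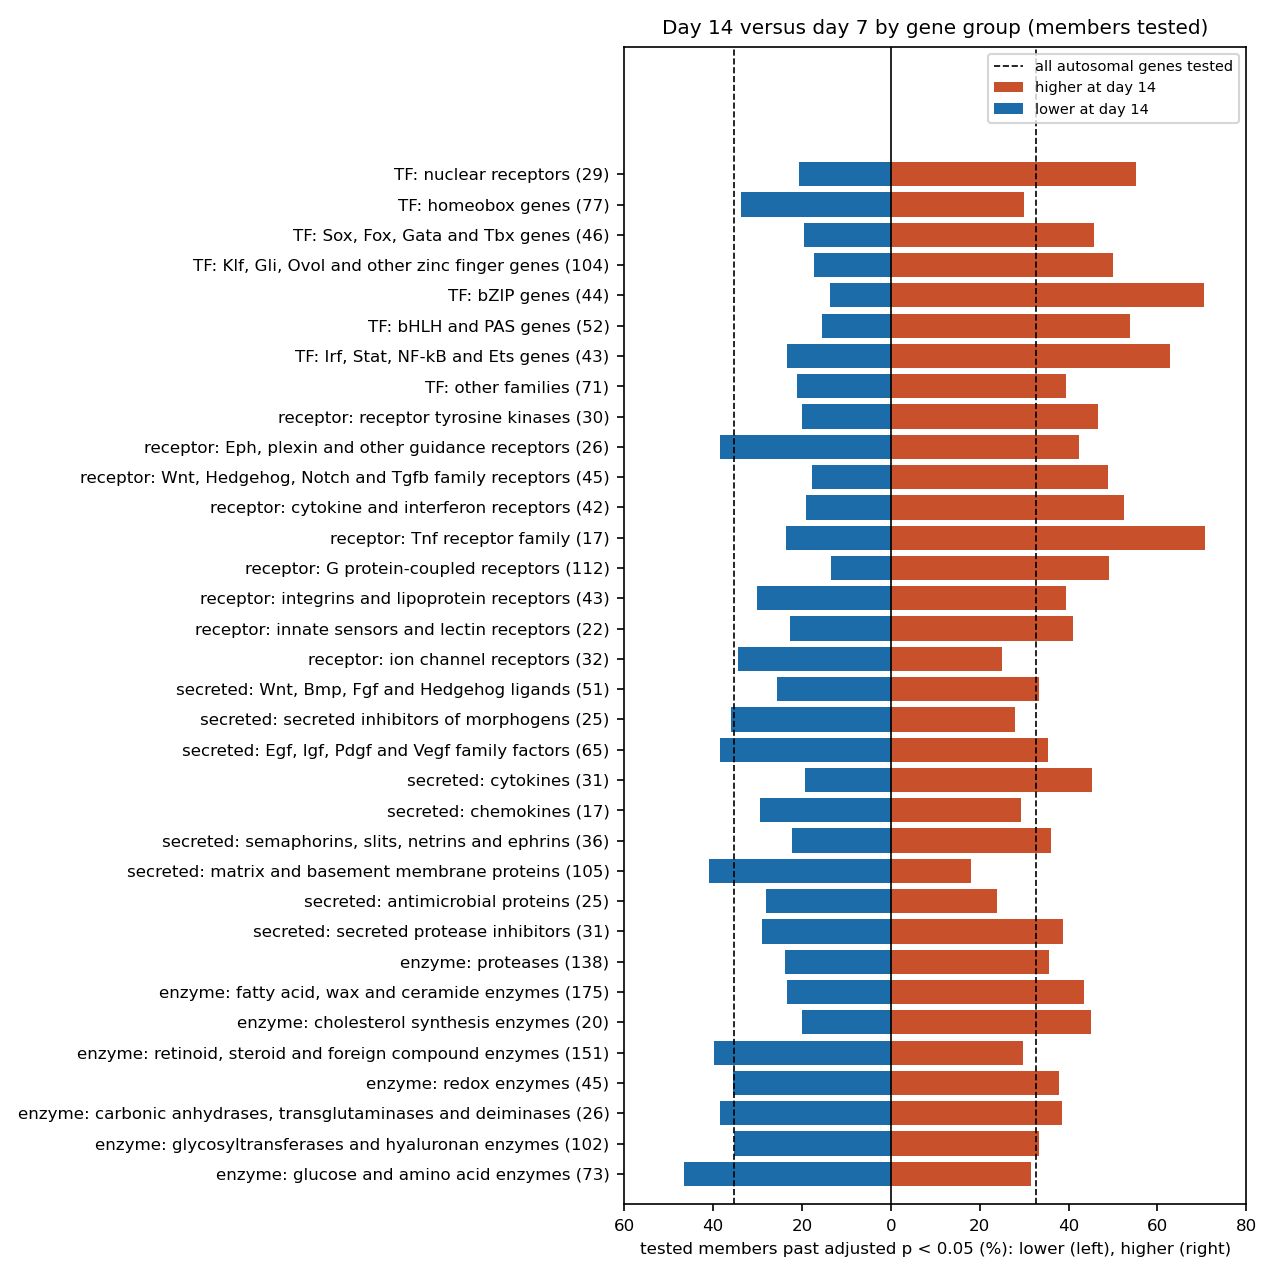
Share of tested members of each gene group that rose (right) or fell (left) from day 7 to day 14 at an adjusted p under 0.05. The number tested stands in brackets, and dashed lines mark the shares over all autosomal genes, 32.6% and 35.2%. The bZIP bar reaches 70.5% on the right, and the matrix protein bar 41.0% on the left against 18.1% on the right.

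The transcription factor class leaves out the zinc finger genes named Zfp and the bZIP gene Jdp2, and its balance depends on that. Of 466 listed factors tested, 226 (48.5%) rose and 98 (21.0%) fell, with a median log2 fold change of 0.343 against -0.035 over all autosomal genes. Listed factors made up 30 of the first rises (6.44% of those tested) and 2 of the first falls (0.429%). With library totals alone as scaling, which lowered the median of all genes to -0.209, 193 of them rose and 134 fell, and 29 first rose. With the Zfp-named genes and Jdp2 added, a change made after seeing the data, 298 of 806 rose (37.0%) and 258 fell (32.0%), at a median of 0.024. First rises were then 34 (4.22%) and first falls 26 (3.23%), and with library totals alone more of the 806 fell than rose, 337 against 245. Among the groups, bZIP genes had 31 rises and 6 falls among 44 members, and Irf, Stat, NF-kB and Ets genes 27 and 10 among 43. Over all autosomal genes 32.6% rose and 35.2% fell. Homeobox genes lay near those shares, with 23 rises (29.9%) and 26 falls (33.8%) among 77. Of the 30 first rises 20 met the rule in every single omission, and of the 2 first falls 1 did. Jdp2, a repressor of AP-1 sites, first fell from 5.05, 4.78 and 4.27 CPM to 0.699, 1.04 and 0.816 CPM (-2.46 ± 0.23 log2, adjusted p = 1.2e-06) and met the rule in every omission.

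AP-1 is a dimer of Fos and Jun proteins that responds to growth signals and stress. Fosb (gene 14282, mm10 chromosome 7, 19302696 to 19310118) was at 1335, 1104 and 1248 CPM in the day 1 libraries, 1759, 1136 and 915 CPM at day 7 and 7826, 8069.8 and 9539 CPM at day 14. Library 1 was the highest of day 7 and still lay far under all of day 14. The log2 fold change was 2.74 ± 0.26 (SE, n = 3 and 3 in edgeR, adjusted p = 8.46e-05), against 0.05 in the first step (adjusted p = 0.892). Jund, a Jun protein often abundant in resting cells, first rose as well, from 695 ± 70.9 to 1601 ± 65.9 CPM (mean ± SD, n = 3). Other members rose without meeting the rule. Fosl2, which had fallen slightly in the first week (-0.22), went from 464 ± 23.5 to 1014 ± 8.17 CPM. Fosl1 rose from 87.4 ± 33.5 to 267 ± 30.0 CPM, but the difference between its 2 steps did not pass (adjusted p = 0.128). Of the factors that dimerise with small Maf proteins, Nfe2l1, a regulator of proteasome and stress genes, rose from 258 ± 8.38 to 628 ± 21.9 CPM, and the small Maf gene Mafk itself rose from 102 ± 11.9 to 509 ± 18.1 CPM. Both had also risen in the first week (0.51 and 0.47 on the log2 scale).

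**Figure D2:**
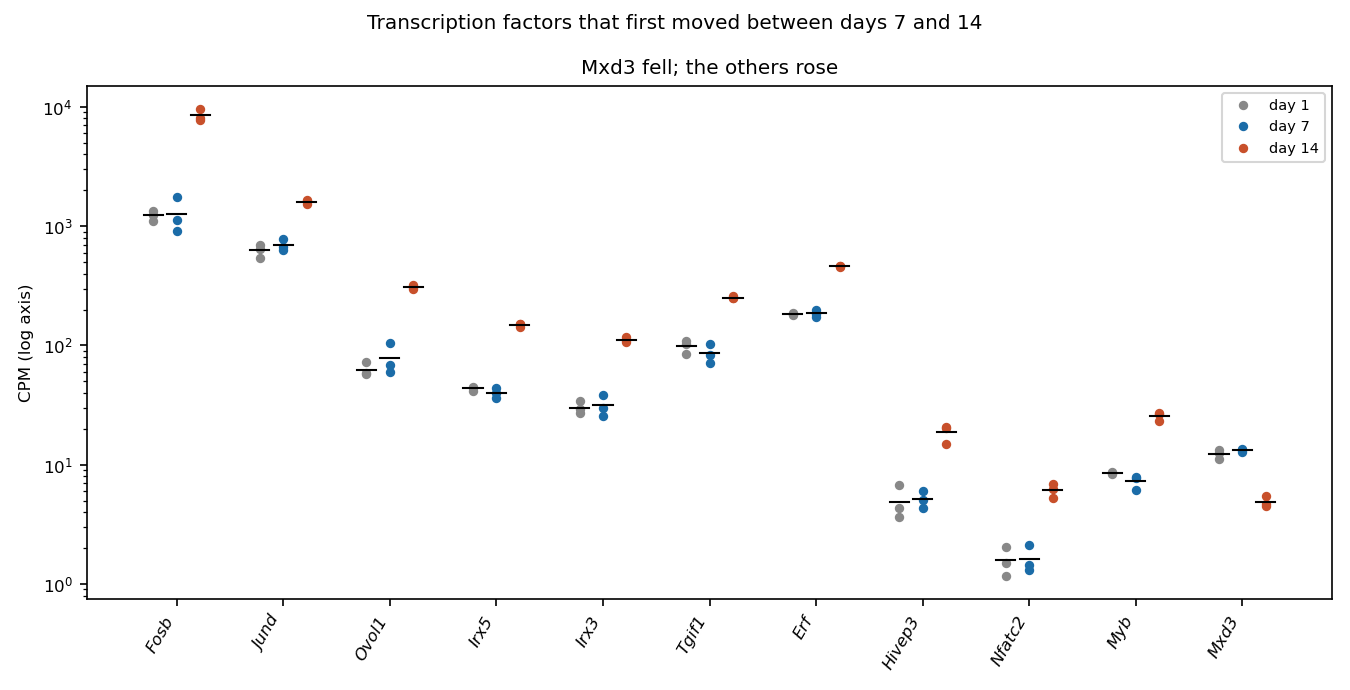
CPM in each library (points, log axis) and the mean of each day (lines) for transcription factors that first moved in the second week. Days 1 and 7 lie side by side while day 14 stands apart, as for Fosb (means of 1229, 1269.8 and 8478 CPM), and Mxd3 is the one among those plotted that fell.

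Krüppel-like factors (Klf) are zinc finger proteins, and Klf4 among them is needed for the skin barrier. The family was singled out after its values were seen. Of 15 tested members 11 rose (73.3%) and 0 fell, against 32.6% and 35.2% over all autosomal genes. The median log2 fold change was 1.002. With RLE size factors, with library totals alone and with DESeq2, 11 again rose and 0 fell. Klf6, Klf10, Klf11, Klf16 and Klf2 first rose in this step. Klf11 went from 108, 93.9 and 89.5 CPM to 249, 229 and 243 CPM and met the rule in every omission (1.304 ± 0.09 log2, adjusted p = 4.52e-07). Klf16 went from 82.6, 65.4 and 72.8 CPM to 270.0, 243 and 239 CPM (1.77 ± 0.09), although it left the rule when library 6 of day 1, 2 of day 7 or 4 of day 14 was dropped. Klf6 went from 851 ± 119.9 to 1944 ± 113 CPM, and left the rule without day 1 library 5. For the other 2 the rule was fragile. Klf10, at 131 ± 32.6 and 368 ± 26.7 CPM, met it in only 2 of the 9 omissions and Klf2, at 44.1 ± 18.1 and 88.4 ± 6.56 CPM, in 0. Klf4 and Klf9 had begun to rise in the first week (0.48 and 0.86 log2) and rose further, Klf4 from 674 ± 75.6 to 1795 ± 49.95 CPM and Klf9, a target of glucocorticoid hormones, from 57.8 ± 8.33 to 288 ± 14.3 CPM. Klf7 (log2 fold change 0.08, adjusted p = 0.673), Klf15 (-0.22, 0.267), Klf14 (adjusted p = 0.232) and Klf1 (adjusted p = 0.601) did not pass.

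**Figure D3:**
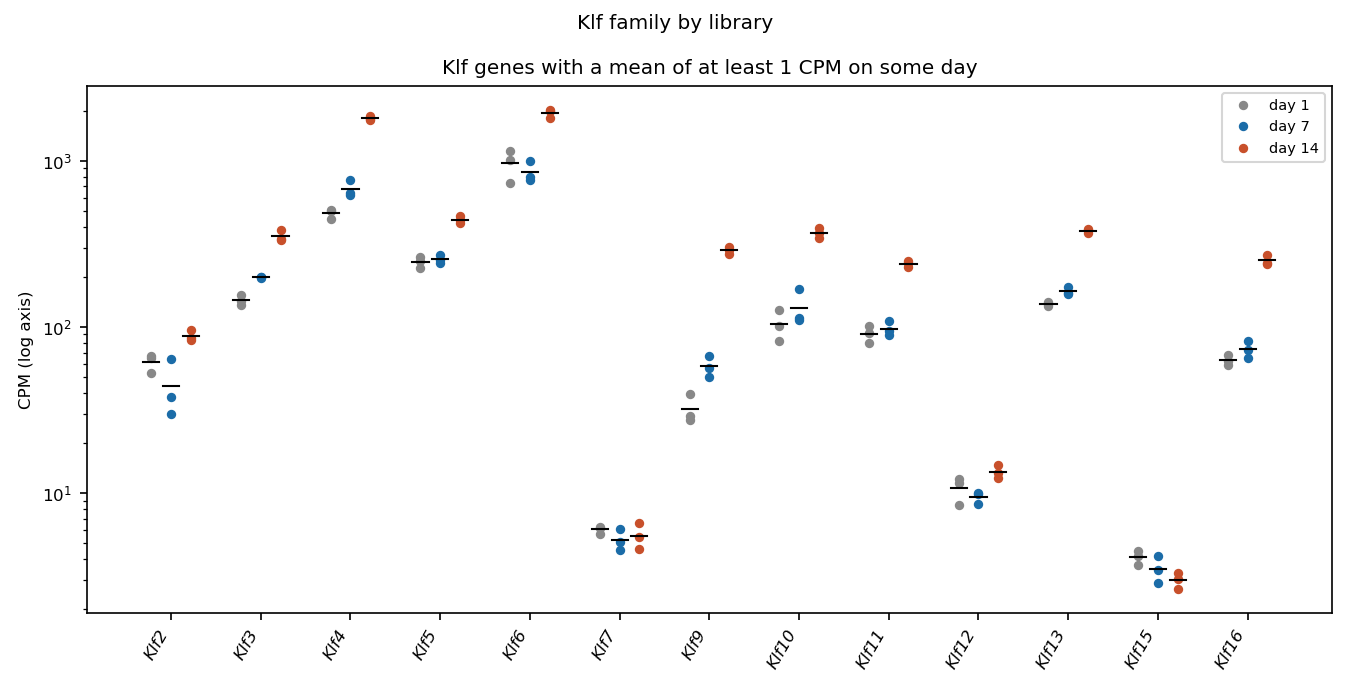
CPM of each Klf gene in each library (points, log axis), with the mean of each day as a line. Klf1 and Klf14, under 1 CPM on every day, are left out. For 11 of the 13 genes plotted day 14 lies above day 7, and Klf7 and Klf15 show days that overlap.

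Irx genes encode Iroquois homeodomain factors, which pattern tissues in early development and act in the skin of newborn animals. Irx5 (gene 54352, chromosome 8, 92357796 to 92361456) stood at 41.9, 43.8 and 45.2 CPM at day 1, 44.2, 36.2 and 39.6 CPM at day 7 and 152, 143 and 150.3 CPM at day 14. Irx3, which lies on the same chromosome, took a like course, from 38.7, 25.8 and 29.9 CPM to 117, 108 and 110.5 CPM. Days 1 and 7 overlapped in both genes and day 14 lay above them, by 1.89 ± 0.07 log2 in Irx5 (adjusted p = 5.32e-10) and 1.83 ± 0.15 in Irx3 (adjusted p = 1.29e-05). Irx5 left the rule without day 7 library 1, and with library totals alone 1 of the 2 met it. Irx4 went the other way in both weeks, from 305 ± 4.83 to 109.8 ± 9.81 and then 29.8 ± 2.26 CPM (-1.88 ± 0.07 in the second week, adjusted p = 7.67e-10). Tgif1, a homeodomain corepressor of Tgfb and retinoid signalling, first rose from 104, 71.6 and 83.5 CPM to 250.2, 249 and 258 CPM, and left the rule without day 7 library 1. Pbx4, a partner of Hox proteins, was the remaining first rise among homeobox genes (0.418 to 3.06 CPM) and Prox2 the first fall (1.49 to 0.565 CPM). Prox2 left the rule in 5 of 9 omissions.

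Ovol1, a zinc finger repressor that takes keratinocytes out of the cell cycle, went from 105, 68.4 and 60.4 CPM at day 7 to 319, 296 and 311 CPM at day 14 (gene 18426, chromosome 19, 5549137 to 5560575). Its day 1 libraries had 58.4, 57.5 and 72.4 CPM, so days 1 and 7 overlapped and day 14 was apart (1.99 ± 0.21 log2, adjusted p = 0.000132). Hivep3, a large zinc finger protein that binds NF-kB-like sites, rose from 5.16 ± 0.834 to 18.7 ± 3.26 CPM (chromosome 4, 119733759 to 120138045, 1.85 ± 0.23 log2, adjusted p = 0.000104). Nfatc2, which calcium and calcineurin activate, rose from 1.63 ± 0.441 to 6.13 ± 0.801 CPM (chromosome 2, 168476410 to 168601657, 1.91 ± 0.24, adjusted p = 1.6e-05). Erf, an Ets-domain repressor that Erk kinases keep out of the nucleus, stood at 178, 185 and 189, then 199, 174 and 182 and lastly 465, 465 and 451 CPM (1.31 ± 0.05, adjusted p = 1.21e-09). Myb, known from dividing progenitors, rose from 6.09, 7.79 and 7.85 to 27.2, 23.2 and 26.8 CPM (1.83 ± 0.10, adjusted p = 1.86e-08). These 5 factors met the rule in all 9 omissions.

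All 3 Nr4a genes, orphan nuclear receptors induced within an hour by many stimuli, rose. Nr4a1 was the first mover among them, from 917, 701 and 639.7 CPM to 2084, 2372 and 2645 CPM (1.65 ± 0.20, adjusted p = 0.000256). Nr4a2 had fallen in the first week and then rose from 6.195 ± 2.02 to 72.9 ± 13.02 CPM, and Nr4a3 rose in both weeks, to 117 ± 6.19 from 8.65 ± 1.93 CPM. As stimulus-induced genes they moved with the immediate early list given above, and its part in them was not tested.

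Max-binding repressors that compete with Myc divided. Mxd1, found in differentiating cells, first rose from 25.4, 19.6 and 19.6 CPM to 60.4, 58.9 and 57.3 CPM (1.45 ± 0.10, adjusted p = 1.5e-07). Mxd4 rose in both weeks and reached 43.5 ± 1.198 from 20.7 ± 1.15 CPM. Mxd3, known from dividing cells, first fell from 13.5, 12.8 and 13.3 CPM to 4.65, 5.505 and 4.48 CPM (chromosome 13, 55325170 to 55329900, -1.43 ± 0.10, adjusted p = 1.19e-07). Mxd3 overlaps Prelid1 in the annotation, a gene that fell less (-0.43 log2), and without a known strand setting their reads cannot be told apart. Id4, a helix-loop-helix protein without a DNA-binding region, first rose from 12.4 to 34.7 CPM, and left the rule without day 1 library 5.

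Further first rises among the factors were Foxo3, a forkhead factor held back by Akt (27.4 to 59.4 CPM), Mef2d (112 to 241), Arid5b (78.8 to 213), Arid5a (58.1 to 180.4), Tsc22d4 (78.3 to 168), Zbtb10 (36.6 to 90.6) and Zbtb42 (13.8 to 35.4). The interferon-induced factor Irf7 (4.06 to 9.26 CPM) left the rule without day 1 library 6 or day 7 library 2, and Arid5a without day 1 library 6. At lower levels, Tbx6 reached 2.87 CPM, Nhlh1 3.07 CPM and Hey1, a repressor downstream of Notch, 3.92 CPM, each from a mean under 1 CPM at day 7. Hey1 left the rule in 4 of the 9 omissions.

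Several factors with the smallest adjusted p in their groups were not first movers, since they had moved in the first week. Nr1d1, a repressor of the circadian clock, rose from 9.08 ± 0.682 to 40.7 ± 1.197 and 353 ± 24.5 CPM (3.12 ± 0.07 in the second week, adjusted p = 2.11e-11). Rora, which competes with Nr1d1 for the same sites, rose from 196 ± 13.2 to 621 ± 33.6 CPM. The hour of collection is not in the labels used here. Ikzf2, a zinc finger factor of the Ikaros family, rose by 1.96 and then 1.98 ± 0.05 on the log2 scale, to 231 ± 6.41 CPM, and the difference of its steps did not pass (adjusted p = 0.862). Tfap2c, an AP-2 factor of epidermis, rose by only 0.21 in the first week and by 1.65 ± 0.07 in the second, from 155, 133 and 145 CPM to 462, 431 and 458 CPM. Mlxip, a glucose sensor, and Zbtb43 had fallen slightly by day 7 (-0.21 and -0.14 log2) and then rose by 1.58 ± 0.04 and 1.51 ± 0.05. E2f7, a repressor of cell cycle genes, fell in both weeks, to 10.5 ± 0.286 from 30.2 ± 2.199 CPM.

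More receptors rose than fell, with 170 of 369 tested (46.1%) rising and 80 (21.7%) falling, at a median log2 fold change of 0.304. The shares over all autosomal genes were 32.6% and 35.2%. They gave 16 first rises (4.34%) and 4 first falls (1.08%), of which 9 and 3 met the rule in every omission. G protein-coupled receptors had 55 rises and 15 falls among 112 tested, and the Tnf receptor family 12 and 4 among 17. Receptors of the Wnt, Hedgehog, Notch and Tgfb pathways rose in 22 of 45 members and fell in 8, with 0 first movers, but with 1 first rise under library totals alone. With library totals alone, 142 receptors rose and 103 fell over the class.

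Ddr2, a receptor tyrosine kinase that binds fibrillar collagen, had the highest fold change of the first-rising receptors above 5 CPM after Ccrl2 (gene 18214, chromosome 1, 169972307 to 170110836). It stood at 3.002, 1.58 and 0.879 CPM at day 1, 2.01, 1.74 and 1.57 CPM at day 7 and 25.8, 23.6 and 27.5 CPM at day 14 (3.85 ± 0.37 log2, adjusted p = 4.56e-05), and left the rule without day 1 library 4, the highest of that day. Its relative Ddr1, a collagen receptor of epithelia, rose by 0.16 ± 0.04. Ccrl2, an atypical receptor that binds the attractant chemerin, went from 0.600, 0.277 and 0.387 CPM to 6.13, 5.73 and 6.67 CPM (chromosome 9, 111054834 to 111057518, 3.86 ± 0.27, adjusted p = 1.11e-07). It left the rule without day 7 library 1, and at day 7 it lay under 1 CPM in every library.

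Receptors for acetylcholine and the enzymes that split it were set side by side after their values were seen. Chrm4, a muscarinic receptor (chromosome 2, 91922189 to 91929835), went from 0.837, 0.522 and 0.8704 CPM to 7.69, 6.35 and 5.95 CPM, and its day 1 libraries (0.636, 0.788 and 0.911 CPM) overlapped those of day 7 (3.17 ± 0.23, adjusted p = 1.54e-07). Chrm4 overlaps the gene Mdk, which was at 0.7999 ± 0.2102 CPM at day 14 and did not pass (adjusted p = 0.39). Chrnb1, a nicotinic receptor subunit, first rose from 0.877 to 2.35 CPM. Ache, the main enzyme that splits acetylcholine (chromosome 5, 137288247 to 137294466), was at 0.651, 0.515 and 0.521 CPM at day 1, 1.41, 1.65 and 1.53 CPM at day 7 and 74.4, 77.9 and 74.7 CPM at day 14. Its rise of 5.63 ± 0.09 log2 (adjusted p = 1.6e-12) was not a first move, since a rise of 1.43 had come before. Bche, which splits acetylcholine and other choline esters, first fell from 2.003 to 0.687 CPM, and left the rule in 6 of 9 omissions.

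Receptors for sphingosine 1-phosphate, a lipid that guides cell movement, were among the first rises. S1pr3 went from 1.28, 0.652 and 0.8897 CPM to 6.79, 9.22 and 7.005 CPM (3.02 ± 0.26, adjusted p = 8.1e-07), with every omission meeting the rule. S1pr4 went from 0.6495 ± 0.06698 to 2.63 ± 0.317 CPM and left the rule without day 1 library 4 or day 7 library 2. Sgms2, a sphingomyelin synthase of the plasma membrane, first rose from 8.02, 6.65 and 5.57 to 22.5, 22.1 and 19.3 CPM (1.65 ± 0.18, adjusted p = 2.24e-05), and left the rule without day 1 library 6.

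Calcrl encodes the core subunit of the receptors for calcitonin gene-related peptide (CGRP) and adrenomedullin, and a Ramp protein sets which peptide it binds. It was at 1.804, 1.91 and 1.87 CPM at day 1, 1.44, 1.61 and 1.62 CPM at day 7 and 9.71, 12.5 and 11.7 CPM at day 14 (chromosome 2, 84330626 to 84425405, 2.86 ± 0.14, adjusted p = 4.63e-09). Day 14 was clear of both other days, which lay within 1 CPM of each other. Calcb, the gene of the beta form of CGRP, had 0 counts in all day 1 libraries, 2.29, 2.38 and 2.495 CPM at day 7 and 18.8, 17.2 and 17.8 CPM at day 14 (2.91 ± 0.11 in the second week, adjusted p = 6.07e-09). Of the partner genes, looked up after these values were seen, Ramp3 rose from 4.33 ± 0.645 to 7.63 ± 0.29 CPM, while Ramp1 (1.54 ± 0.172 and 1.13 ± 0.279 CPM, adjusted p = 0.0631) and Ramp2 (adjusted p = 0.563) did not pass.

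Among integrins and lipoprotein receptors, 17 of 43 tested rose (39.5%) and 13 fell (30.2%), not far from the 32.6% and 35.2% over all autosomal genes. With library totals alone 11 rose and 18 fell. Vldlr, which binds triglyceride-rich particles and reelin, was at 45.4, 39.2 and 48.1 CPM at day 1, 43.98, 43.7 and 43.7 CPM at day 7 and 9.81, 7.58 and 8.18 CPM at day 14 (chromosome 19, 27216480 to 27254231, -2.36 ± 0.10, adjusted p = 1.76e-09). It met the rule in all 9 omissions, and its day 14 libraries lay far under the 6 others.

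Il17rd, a membrane inhibitor of Fgf and Ras signalling, first rose from 9.71, 9.28 and 9.23 CPM to 24.2, 29.8 and 21.97 CPM (chromosome 14, 27038964 to 27107286, 1.43 ± 0.10, adjusted p = 1.16e-07). Among cytokine receptors that had moved before, Il17ra, a subunit of the receptor of interleukin 17, rose from 39.9 ± 0.547 to 98.3 ± 1.399 CPM. Il20ra, a subunit of the receptors of interleukins 19, 20 and 24, rose from 0.347 ± 0.0977 to 8.32 ± 1.14 and 87.4 ± 7.24 CPM, by 3.395 ± 0.11 log2 in the second week. Its partner Il20rb rose by 0.26 ± 0.07. In the Tnf receptor family, Tnfrsf10b, a death receptor for Trail, first rose from 12.5, 12.4 and 13.9 to 28.3, 27.4 and 29.4 CPM (1.13 ± 0.08, adjusted p = 7.66e-08). Tnfrsf23, a decoy receptor for Trail, first rose from 2.03 to 4.497 CPM. The decoy receptor Tnfrsf11b, also called osteoprotegerin, first fell from 3.96 ± 0.4801 to 0.559 ± 0.241 CPM, and left the rule without day 1 library 5 or day 7 library 3. Tnfrsf12a, the receptor of Tweak, was no first mover but rose from 71.98 ± 7.27 to 205 ± 9.01 CPM.

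The channel Trpv3, a warmth sensor of keratinocytes, first rose from 10.2, 9.42 and 9.67 to 19.6, 23.8 and 23.8 CPM (chromosome 11, 73267489 to 73300368, 1.198 ± 0.09, adjusted p = 2.67e-07). Unc5b, a receptor of netrins, first rose from 29.1 to 67.3 CPM, and left the rule without day 14 library 6. First rises at low levels were Adra2a, an adrenergic receptor (0.255 to 2.04 CPM), Itga7, an integrin subunit for laminin (0.7601 to 2.27), and P2rx2, an ATP-gated channel (0.04297 to 0.697). P2rx2 left the rule in every omission, Itga7 in 7 of 9, and Adra2a without day 1 library 4 or day 7 library 1. First falls at low levels were Clec14a (1.13 to 0.157 CPM) and Lpar3, a receptor of lysophosphatidic acid (4.03 to 1.51).

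Other receptors with the smallest adjusted p in their groups had moved before. Mst1r, the tyrosine kinase receptor of macrophage-stimulating protein, rose from 132 ± 0.747 to 375 ± 12.9 CPM. Ngfr, the low-affinity neurotrophin receptor, rose from 3.73, 3.39 and 3.58 CPM to 32.3, 36.1 and 44.8 CPM (3.403 ± 0.16, adjusted p = 1.49e-08). Ephb3 turned, falling to 95.3 ± 2.85 CPM at day 7 from 114 ± 9.02 at day 1 and then rising to 259.5 ± 1.802 CPM. The Wnt receptors Fzd5 and Fzd10 moved apart, Fzd5 by 1.36 ± 0.05 and Fzd10 by -1.196 ± 0.05. Ror1 fell in both weeks, to 18.3 ± 1.54 from 46.5 ± 1.63 CPM. Ednrb, the endothelin receptor that melanocytes need, fell from 6.71 ± 0.443 to 0.709 ± 0.204 CPM and the melanocyte channel Trpm1 from 11.3 ± 0.2905 to 3.65 ± 0.698 CPM, beside the 6 of 6 melanocyte markers that fell. The part of melanocytes in these falls was not tested. The bacterial sensors Nod1 and Nod2 rose by 0.77 ± 0.05 and 1.84 ± 0.10.

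**Figure D4:**
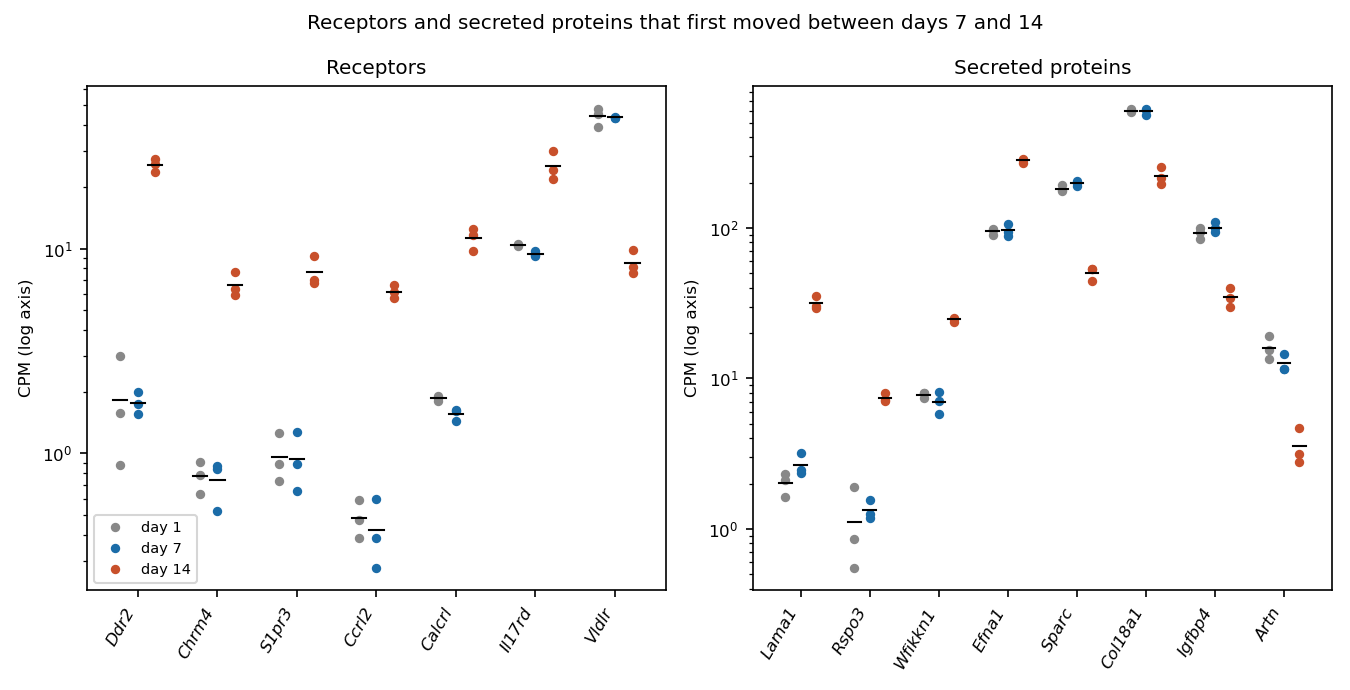
CPM in each library (points, log axis) and mean of each day (lines) for receptors (left) and secreted proteins (right) that first moved in the second week. Day 14 lies above days 1 and 7 for Ddr2, Chrm4, S1pr3, Ccrl2, Calcrl, Il17rd, Lama1, Rspo3, Wfikkn1 and Efna1, and below them for Vldlr, Sparc, Col18a1, Igfbp4 and Artn.

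Secreted proteins had no lean over all groups, with 116 of 386 tested (30.1%) rising, 125 (32.4%) falling and a median of -0.016. Over all autosomal genes 32.6% rose and 35.2% fell. They gave 16 first rises (4.15%) and 11 first falls (2.85%), of which 5 and 5 met the rule in every omission. Matrix and basement membrane proteins had 19 rises and 43 falls among 105 tested, at a median of -0.534, and 53 fell with library totals alone. Cytokines had 14 rises and 6 falls among 31, but 9 and 9 with library totals alone.

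Lama1 encodes a laminin chain of embryonic basement membranes (gene 16772, chromosome 17, 67697127 to 67822645). It was at 2.1, 2.33 and 1.63 CPM at day 1, 2.37, 2.46 and 3.17 CPM at day 7 and 30.3, 29.1 and 35.3 CPM at day 14 (3.57 ± 0.14, adjusted p = 1.39e-09). Its first step of 0.39 log2 was near the test's threshold (adjusted p = 0.0504), and it left the rule when library 5 of day 1, 1 of day 7 or 6 of day 14 was dropped. Lama3, the chain of the laminin under basal keratinocytes, fell from 582 ± 7.86 to 421 ± 43.4 CPM, and Lama5 did not pass (-0.01 ± 0.06, adjusted p = 0.909). Adamtsl4, which binds microfibrils, first rose from 1.86, 2.28 and 1.47 to 4.79, 5.88 and 5.73 CPM (chromosome 3, 95676201 to 95687927, 1.54 ± 0.18).

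Sparc, a collagen-binding matrix protein (gene 20692, chromosome 11, 55394159 to 55420080), was at 191, 179 and 175 CPM at day 1, 189.6, 199.9 and 204 CPM at day 7 and 53.7, 44.4 and 53.2 CPM at day 14. Its change of -1.97 ± 0.07 log2 (adjusted p = 6.64e-10) followed a first step of 0.12. Col18a1, a basement membrane collagen and the precursor of endostatin, went from 604, 614 and 565 CPM to 195, 215 and 255 CPM (chromosome 10, 77052178 to 77166530, -1.42 ± 0.08, adjusted p = 7.47e-08). Both met the rule in every omission. Low-level first falls of this group were Col25a1 (0.733 to 0.0133 CPM) and Prelp (1.04 to 0.253), which left the rule without day 1 library 4 and day 7 library 1 respectively. Postn and Fras1 had moved before and fell further. Postn, a matrix protein that binds integrins, went from 1298, 1321 and 1336 CPM to 232, 227 and 234 CPM (-2.51 ± 0.04, adjusted p = 2.72e-12), after a first step of only -0.12. Fras1, a protein under the basement membrane that anchors embryonic skin, went from 385 ± 34.7 to 168 ± 21.7 and then 2.897 ± 0.127 CPM (-5.85 ± 0.12). Of the 6 fibroblast markers 0 passed in either direction. Their day 7 libraries were uneven, as in Col3a1 at 1.31, 19.5 and 1.39 CPM, so a lack of change is not read from this. The part of fibroblasts in these falls was not tested.

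Growth factors moved in both directions. Rspo3, which binds Lgr receptors and strengthens Wnt signals, first rose from 1.18, 1.57 and 1.26 CPM to 7.13, 8.01 and 7.22 CPM (chromosome 10, 29453106 to 29535867, 2.48 ± 0.36, adjusted p = 0.000145), and left the rule without day 1 library 4 or day 7 library 1 or 3. None of its receptors, looked up after this was seen, passed as a rise. Lgr4 was at 74.8 ± 0.736 and 78.9 ± 2.96 CPM (adjusted p = 0.224), Lgr5 did not pass (adjusted p = 0.383) and Lgr6 fell by 0.29 on the log2 scale. Bmp2 first rose from 177, 117 and 124 CPM to 322, 308 and 360.2 CPM (1.24 ± 0.17, adjusted p = 0.000348). Bmp4 rose in both weeks by similar steps, 1.94 and 1.84 ± 0.06 log2, reaching 115 ± 7.84 CPM. Wnt11 rose from 2.36 ± 0.369 to 23.95 ± 3.54 CPM after a first rise of 1.23. Vegfa, the main growth factor of blood vessels, first rose from 78.97, 51.2 and 59.1 to 190.2, 149.5 and 179.6 CPM (1.46 ± 0.20), and left the rule without day 7 library 2 or 3. Tgfa, a ligand of the Egf receptor, rose from 9.02, 6.98 and 7.04 to 20.9, 22.02 and 17.9 CPM (1.399 ± 0.18).

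Secreted inhibitors of morphogens had 7 rises (28%) and 9 falls (36%) among 25 tested, near the 32.6% and 35.2% over all autosomal genes. Their median was -0.176, and with library totals alone they had 5 rises and 10 falls. The 2 first rises of this group bind ligands of the Tgfb family. Wfikkn1, which binds myostatin and Gdf11, went from 8.13, 5.805 and 7.04 CPM to 25.4, 24.9 and 23.9 CPM (chromosome 17, 25877628 to 25880858, 1.82 ± 0.11, adjusted p = 2.37e-08), and left the rule without day 7 library 1. Fstl3, which binds activins, went from 30.3, 29.9 and 29.6 CPM to 73.7, 74.9 and 75.6 CPM (chromosome 10, 79777274 to 79782630, 1.32 ± 0.06, adjusted p = 2e-09). Fstl3 overlaps Prss57 in the annotation, a gene with too few counts to be tested. Gdf5, a ligand of the family, first fell at low level (0.804 to 0.133 CPM) and left the rule in 7 of 9 omissions.

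Among falling growth factors, Igfbp4, which binds insulin-like growth factors, went from 109, 99.4 and 93.5 CPM to 34.1, 39.8 and 29.7 CPM (chromosome 11, 99040005 to 99052655, -1.54 ± 0.11, adjusted p = 1.48e-06). Artn, a ligand of Ret that supports sensory neurons, went from 14.6, 11.6 and 11.5 CPM to 4.67, 3.17 and 2.79 CPM (chromosome 4, 117925908 to 117930795, -1.83 ± 0.20, adjusted p = 2.77e-05). Both met the rule in every omission. Ptn, a heparin-binding growth factor, fell from 74.1 ± 2.74 to 36.9 ± 2.62 CPM and left the rule without day 7 library 1 or day 14 library 6. Penk, the precursor of enkephalins, fell in both weeks, from 45.9 ± 4.57 to 6.9 ± 0.656 and 0.403 ± 0.0778 CPM. Metrnl first rose from 18.1 to 49.1 CPM, and left the rule without day 1 library 4 or day 14 library 4.

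Ephrins are membrane-bound ligands of Eph receptors. Efna1 first rose from 107, 88.7 and 94.4 CPM to 289, 285 and 268 CPM (gene 13636, chromosome 3, 89271730 to 89280951, 1.54 ± 0.07, adjusted p = 2.33e-09), with 96.1, 89.9 and 98.2 CPM at day 1. Epha2, the receptor it is best known to bind, rose from 177 ± 24.1 to 808 ± 6.56 CPM after a first rise of 0.62. Efnb2 rose from 138 ± 11.6 to 343 ± 9.103 CPM. Ntng2, a membrane-anchored netrin, first rose from 0.492 to 1.903 CPM, and left the rule without day 7 library 2.

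Cytokines and defence proteins among the first movers were at low levels. Tslp, an epithelial cytokine that acts on dendritic cells, stood at 0.316, 0.4403 and 0.309 CPM at day 7 and 2.56, 2.903 and 2.23 CPM at day 14, and left the rule in 7 of 9 omissions. Cntf, which supports neurons, first rose from 1.14 to 2.59 CPM (not without day 7 library 1) and the antimicrobial protease inhibitor Slpi from 0.148 to 1.103 CPM. S100a9 first fell from 0.972 to 0.2298 CPM. Saa1, at 0.172 CPM on day 7, had no count in the day 14 libraries and was thus at least 2.93-fold lower against a floor of 3 counts per library. Slpi, S100a9 and Saa1 left the rule in 7, 6 and 8 of 9 omissions. Il1f5, an antagonist of interleukin 36, and Il1f9, an interleukin 36, turned: they rose in the first week and then fell from 48.8 ± 1.12 to 18.4 ± 2.12 CPM and from 19.4 ± 0.959 to 8.29 ± 1.04 CPM. Among chemokines no gene was a first mover, and Cxcl16 and Cx3cl1 rose in both weeks, by 1.02 ± 0.06 and 0.91 ± 0.06 in the second.

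Spint1, a membrane inhibitor of serine proteases such as matriptase, first rose from 45.1, 41.2 and 40.97 CPM to 88.9, 90.8 and 89.97 CPM (chromosome 2, 119237360 to 119249535, 1.08 ± 0.06, adjusted p = 2.03e-08), and left the rule without day 1 library 4 or day 7 library 1. Prss8, the membrane protease prostasin that acts with matriptase in the skin barrier, first rose from 8.26, 7.01 and 7.37 CPM to 23.8, 25.1 and 21.5 CPM (1.64 ± 0.10, adjusted p = 3.1e-08). Serpina3j and Serpina5 moved at low level, up to 0.967 CPM and down to 0.189 CPM from 1.19 CPM. Serpina3j, one of several near-identical genes, is uncertain for that reason and left the rule in 6 of 9 omissions.

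Enzymes were balanced, with 263 of 730 tested (36.0%) rising, 234 (32.1%) falling and a median of 0.019. These shares lay near the 32.6% and 35.2% over all autosomal genes. They gave 10 first rises (1.37%, against 2.66% over all genes) and 15 first falls (2.05% against 1.78%), with 6 and 6 meeting the rule in every omission. With library totals alone, 216 rose and 298 fell, so the balance turned with that scaling. Enzymes of retinoids, steroids and foreign compounds gave 0 first rises and 7 first falls among 151. Fatty acid, wax and ceramide enzymes had 76 rises (43.4%) and 41 falls (23.4%) among 175, but 62 and 58 with library totals alone.

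Cpe, the carboxypeptidase that trims prohormones (gene 12876, chromosome 8, 64592542 to 64693109), was at 9.72, 10.1 and 7.01 CPM at day 1, 9.68, 8.87 and 9.52 CPM at day 7 and 57.9, 54.4 and 69.3 CPM at day 14 (2.69 ± 0.14, adjusted p = 8.49e-08). Days 1 and 7 overlapped, and day 14 lay above them in every library. Ptgs2, the inducible enzyme of prostaglandin synthesis, went from 42.5, 34.6 and 30.2 CPM to 152, 161 and 233 CPM, with library 6 the highest of day 14 (chromosome 1, 150100031 to 150108234, 2.35 ± 0.27, adjusted p = 0.00025). As a gene induced by stimuli it moved with the immediate early list, whose part was not tested. Hpgds, which makes prostaglandin D2, turned, falling from 51.05 ± 7.01 to 13.04 ± 0.563 CPM and then rising to 118 ± 3.499 CPM (3.18 ± 0.09, adjusted p = 1.97e-10). Hpgds is also known from mast cells and other leukocytes. All 5 tested leukocyte markers rose in the same step, the list holds no mast cell gene, and the part of such cells was not tested.

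Pfkfb3 and Pfkfb2 make fructose 2,6-bisphosphate, which speeds up glycolysis. Pfkfb3 first rose from 15.1, 12.1 and 10.8 CPM to 42.6, 37.1 and 42.7 CPM (chromosome 2, 11471430 to 11554071, 1.69 ± 0.12, adjusted p = 4.14e-07), and Pfkfb2, which had risen before, reached 346 ± 21.4 from 133 ± 6.72 CPM. The group of glucose and amino acid enzymes to which they belong had more falls than rises, 34 (46.6%) against 23 (31.5%) among 73. Over all autosomal genes 35.2% fell and 32.6% rose. Got1, an aspartate aminotransferase, rose from 16.8 ± 0.731 to 51.4 ± 0.609 CPM.

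Glycan-building enzymes moved in both directions. Mgat5b, an N-acetylglucosaminyltransferase best known from brain, first rose from 2.72, 2.28 and 2.998 CPM to 11.98, 9.78 and 11.8 CPM (chromosome 11, 116918853 to 116986944, 2.07 ± 0.16, adjusted p = 2.97e-07). B3gnt2, which extends poly-N-acetyllactosamine chains, first rose from 27.1 to 68.5 CPM, and left the rule without day 1 library 4 or day 14 library 6. Sulf2, which removes sulfate from heparan sulfate outside the cell, first fell from 59.8, 43.1 and 39.1 CPM to 26.7, 17.1 and 19.3 CPM (chromosome 2, 166073899 to 166155683, -1.17 ± 0.23, adjusted p = 0.00301), and left the rule in 6 of 9 omissions. Gcnt2, which branches such chains, rose from 15.3 ± 0.421 to 112 ± 12.8 CPM after a smaller rise before.

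Lipid enzymes split as well. Lipg, endothelial lipase, first rose from 22.2, 17.6 and 22.5 to 51.1, 45.96 and 46.4 CPM (1.204 ± 0.17, adjusted p = 0.000226). Lpl, lipoprotein lipase, first fell from 18.7, 14.8 and 11.9 CPM to 4.93, 6.35 and 2.77 CPM (chromosome 8, 68880555 to 68906932, -1.69 ± 0.31, adjusted p = 0.00175), but left the rule when library 4 of day 1, 1 or 2 of day 7 or 4 of day 14 was dropped. Pnpla2, the lipase of lipid droplets, rose from 19.2 ± 1.27 to 75.3 ± 1.03 CPM after a first step of 0.24. In cholesterol synthesis, Lss, which forms the sterol ring, fell by 0.82 on the log2 scale, whereas Hmgcs1, an early enzyme, rose from 401 ± 7.79 to 952 ± 55.97 CPM. Over this group 9 of 20 rose (45%) and 4 fell (20%), against 32.6% and 35.2% over all autosomal genes. With library totals alone 8 rose and 10 fell.

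Aldh1l2 and Aldh1l1, the mitochondrial and cytosolic enzymes that oxidise formyl-tetrahydrofolate, both first fell. Aldh1l2 went from 14.7, 15.6 and 11.4 CPM to 2.68, 2.903 and 1.91 CPM (chromosome 10, 83487447 to 83534146, -2.47 ± 0.16, adjusted p = 7.75e-08), and left the rule without day 14 library 6. Aldh1l1 went from 8.43 ± 0.317 to 4.13 ± 0.01801 CPM. Car12, a carbonic anhydrase of the cell surface, was at 349, 361 and 380.2 CPM at day 1, 366, 358 and 343 CPM at day 7 and 137, 139 and 137 CPM at day 14 (chromosome 9, 66712296 to 66766845, -1.37 ± 0.05, adjusted p = 3.38e-10). The 3 libraries of day 14 were nearly alike and stood clear of the 6 others. Ces2g, a carboxylesterase, first fell from 137 ± 5.41 to 64.1 ± 4.99 CPM, and the calcium-dependent protease Capn2 from 42.1 ± 3.86 to 19.1 ± 0.191 CPM.

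The remaining first falls of enzymes were Dhrs13 (11.4 to 5.296 CPM), Msrb2, which repairs oxidised methionine (8.62 to 4.11), B3gnt9 (4.91 to 2.26), Hsd17b2, which inactivates oestradiol and testosterone (0.823 to 0.0265), and Acsbg2 (0.507 to 0.0332). Ugt2b1 had no count in the day 14 libraries and was at least 3.51-fold lower than a week before, against a floor of 3 counts per library, and left the rule without day 1 library 4. The remaining first rises were Prss53 (1.47 to 3.47 CPM) and Car15 (2.33 to 4.76). Of these 8 genes, Msrb2 alone met the rule in every omission, while Hsd17b2 left it in 3 of 9 and Dhrs13, B3gnt9, Acsbg2, Prss53 and Car15 each in 2 of 9. Enzymes that turned at day 7 included the glutathione transferase Gstm2, which fell by 1.20 on the log2 scale after a rise of 0.76, and the transglutaminase Tgm3, which went from 131 ± 26.3 to 670.1 ± 18.3 and 115 ± 11.3 CPM.

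**Figure D5:**
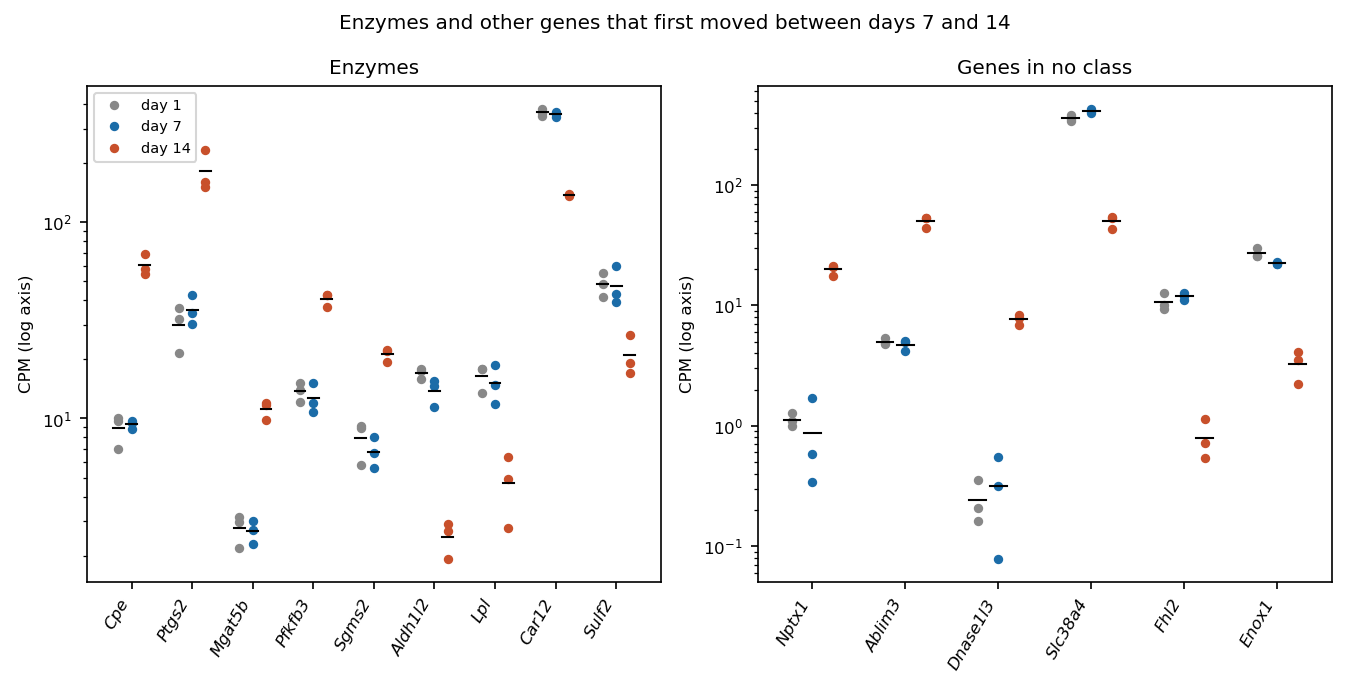
CPM in each library (points, log axis) and mean of each day (lines) for enzymes (left) and genes in none of the 4 classes (right) that first moved in the second week. Cpe rises from a mean of 9.36 to 60.5 CPM and Slc38a4 falls from 414 to 50.6 CPM, while days 1 and 7 lie close together.

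Genes in none of the 4 classes made up 300 of the first rises and 218 of the first falls. Nptx1, a pentraxin known from synapses, was at 1.09, 1.27 and 0.993 CPM at day 1, 1.71, 0.342 and 0.5802 CPM at day 7 and 17.7, 21.3 and 20.9 CPM at day 14 (chromosome 11, 119538719 to 119547820, 4.49 ± 0.47, adjusted p = 7.86e-05), and left the rule without day 7 library 1. Dnase1l3, a secreted nuclease that degrades DNA of dying cells, went from 0.316, 0.554 and 0.0774 CPM to 8.39, 6.82 and 7.82 CPM (chromosome 14, 7965187 to 7994760, 4.56 ± 0.44, adjusted p = 7.64e-06), and left the rule without day 1 library 5 or day 7 library 3. Ablim3, an actin-binding LIM protein, went from 4.97, 5.02 and 4.16 CPM to 44.3, 52.99 and 53.4 CPM and met the rule in every omission (3.41 ± 0.10, adjusted p = 1.52e-10). Gp1bb, a platelet glycoprotein gene that overlaps Septin5, was uneven, at 40.4, 37.8 and 15.5 CPM at day 14, with library 6 well under the other 2. It left the rule in 5 of 9 omissions. Kbtbd11 rose from 0.536 to 5.45 CPM.

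Fhl2, a LIM-only cofactor of transcription, went from 12.8, 11.95 and 11.03 CPM to 0.539, 0.716 and 1.13 CPM (chromosome 1, 43123071 to 43198343, -3.902 ± 0.21, adjusted p = 3.1e-08), with 10.1, 12.7 and 9.32 CPM at day 1. Slc38a4, an amino acid transporter expressed from the paternal allele in several tissues, went from 433, 412 and 397 CPM to 54.5, 43.5 and 53.6 CPM (chromosome 15, 96994816 to 97055956, -3.03 ± 0.09, adjusted p = 2.93e-10). Its first step of 0.203 was near the threshold (adjusted p = 0.053), and it left the rule without day 1 library 4 or day 14 library 4 or 5. Tmem173, which encodes the DNA-sensing adaptor Sting, went from 16.6, 11.8 and 12.6 CPM to 1.52, 1.07 and 1.03 CPM (-3.499 ± 0.24, adjusted p = 1.06e-06) and left the rule without day 1 library 5 or day 7 library 1. Enox1 fell from 22.3 ± 0.633 to 3.28 ± 0.9601 CPM and the linker histone gene Hist1h1e from 9.72 ± 0.149 to 1.33 ± 0.463 CPM. Enox1 left the rule without day 14 library 6, and Hist1h1e may share reads with other histone genes.

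Of the 250 first falls, 22 were on a list of cell division genes. The list was written after values were seen, so its counts are a description. Of 51 tested 47 fell (92.2%, against 35.2% over all autosomal genes) and 0 rose, at a median log2 fold change of -1.03. The 22 first falls were 43.1% of the list, against 1.78% over all autosomal genes. With RLE size factors, library totals alone or DESeq2, 17 to 19 first fell. Cdk1, the kinase that drives mitosis, was at 77.4, 76.2 and 77.1 CPM at day 1, 73.1, 77.8 and 74.9 CPM at day 7 and 38.3, 32.8 and 35.5 CPM at day 14 (-1.08 ± 0.06, adjusted p = 9.53e-09). Its partner Ccnb2, a B-type cyclin, went from 42.6, 48.7 and 46.2 CPM to 23.6, 21.3 and 18.6 CPM (-1.11 ± 0.09), and Aurka, a kinase of the spindle poles, from 22.9, 29.97 and 26.1 CPM to 11.7, 10.3 and 10.1 CPM (-1.3 ± 0.10). None passed between days 1 and 7 (Cdk1 adjusted p = 0.679, Ccnb2 0.803, Aurka 0.252), and all 3 met the rule in every omission. The proliferation marker Mki67 went from 437 ± 21.1 to 449 ± 13.9 and 243 ± 8.05 CPM (-0.88 ± 0.05, adjusted p = 1.4e-08). Mcm5, of the helicase that opens DNA for copying, first fell from 121 ± 7.31 to 55.4 ± 8.88 CPM, though not without day 14 library 6.

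The promoters of Cdk1, Ccnb2 and Aurka are shown because their genes fell together and hold 2 elements known from cell cycle promoters. These are the CCAAT box and the cell-cycle homology region, searched as TTTGAA, each on both strands. Sequences run 5′ to 3′ on the strand of the gene, 250 bases before to 50 after the start, from RefSeq on GRCm38.p6, at chr10:69352863-69353162, chr9:70421505-70421804 and chr2:172370521-172370820, all on the minus strand. Capitals mark the 2 motifs, or their reverse complements.
Cdk1: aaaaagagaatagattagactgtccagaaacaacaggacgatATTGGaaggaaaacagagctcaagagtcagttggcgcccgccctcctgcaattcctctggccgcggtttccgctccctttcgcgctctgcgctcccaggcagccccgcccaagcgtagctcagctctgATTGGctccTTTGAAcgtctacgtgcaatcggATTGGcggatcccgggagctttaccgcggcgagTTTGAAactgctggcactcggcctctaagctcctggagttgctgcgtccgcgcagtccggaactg
Ccnb2: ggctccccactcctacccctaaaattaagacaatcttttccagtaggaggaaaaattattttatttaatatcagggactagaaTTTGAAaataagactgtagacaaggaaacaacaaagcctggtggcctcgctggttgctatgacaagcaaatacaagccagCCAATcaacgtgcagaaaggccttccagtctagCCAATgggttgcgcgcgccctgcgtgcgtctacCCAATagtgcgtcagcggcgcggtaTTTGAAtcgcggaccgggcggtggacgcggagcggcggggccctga
Aurka: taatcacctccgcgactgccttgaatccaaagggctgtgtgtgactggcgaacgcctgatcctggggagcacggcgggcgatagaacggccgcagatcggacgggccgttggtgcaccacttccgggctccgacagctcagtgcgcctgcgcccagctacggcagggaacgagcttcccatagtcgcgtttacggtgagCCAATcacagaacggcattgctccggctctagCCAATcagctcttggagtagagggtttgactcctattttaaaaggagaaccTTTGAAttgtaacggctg
CCAAT was found 3 times in Cdk1, 3 times in Ccnb2 and 2 times in Aurka, and TTTGAA 2, 2 and 1 times. Over promoters of this length with an entry, TTTGAA was in 20.1% of 189 first falls, 11.9% of 260 first rises and 12.1% of all 10915 autosomal genes tested. CCAAT was in 47.6%, 41.2% and 38.8% of them. The AP-1 element, searched as TGANTCA, was in 3.17% of first falls and 6.15% of first rises, against 5.30% of all. The cAMP response element TGACGTCA was in 2.65%, 3.08% and 3.32%, and TATAAA in 12.2%, 10.8% and 7.66%. Such matches describe letters in a window, and no binding was measured.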

How the data were processed

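RNA of 9 libraries of sorted mouse keratinocytes was measured, 3 per postnatal day. Whole-number read counts per gene were deposited by the authors, per the file headers, with 18 further per-library columns of normalized values that were not used. The submitters' processing notes name HISAT2 2.1.0, StringTie 1.3.4d, Trimmomatic, bcl2fastq 2.20.0 and the build mm10. Which tool counted reads, with what strand setting and which annotation, is not given in the sources used here. Of genes with 1 to 20 counts, 53.1 to 55.1% of values were even in each library. Of 24532 genes 24462 matched the RefSeq table of GRCm38.p6 by gene ID, which gave positions and overlaps. Another gene overlaps 294 of the 622 first movers and 45 of the 108 genes chosen by rule. Reads of overlapping genes cannot be told apart, and only some of these overlaps are named above. Column headers name days but could not be tied to single titles, so libraries are named by header number.

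Counts were filtered by filterByExpr, scaled by TMM and fitted with edgeR 4.0.16 (R 4.3.3, limma 3.58.1; robust quasi-likelihood F test) over all 9 libraries, with Benjamini-Hochberg adjustment over 14507 genes. The standard error is the log2 fold change divided by the root of F. Genes at 0 were bounded at a floor of 3 counts, for counting error only. DESeq2 1.42.0, other scalings, filters and definitions, and omission of each library were alternatives. Classes came from symbol patterns in 34 groups, which leave out some genes of each kind, such as the Zfp-named zinc finger genes. The members and lists were chosen with earlier results of these data known. Genes described in detail are up to 5 first rises and 5 first falls per class, and in no class, with the largest fold change, at least 5 CPM and no overlap (at most 2 per group), up to 2 changed genes per group with the smallest adjusted p, and Krt5, Krt14, Krt10, Mki67 and Ptprc. The other first movers of the 4 classes are named too, except for some genes that are not reported here. Other genes named were chosen after their values were seen.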

Additional observations from a re-analysis of the deposited data

How the results depend on the processing

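Tested against a fold of 1.5, 1860 autosomal genes were higher at day 14 and 1242 lower, in place of 4565 and 4931. Among genes with a mean of at least 10 CPM in a day, 235 first rose and 108 first fell, in place of 372 and 250, from fewer genes tested. With no fold minimum the counts were 1221 and 1609. With at least 5 CPM and no overlap between libraries, an alternative chosen after seeing the data, 272 first rose and 146 first fell. With the Zfp-named genes and Jdp2 in the transcription factor class, also chosen after seeing the data, falls went from 98 to 258 and first falls from 2 to 26. Leaving out 1 library at a time gave 4201 to 4533 higher, 4570 to 5051 lower, 318 to 378 first rises and 228 to 269 first falls. Library totals alone gave 303 first rises and 324 first falls, RLE size factors 401 and 225, and DESeq2 411 and 233. A definition by a 95% interval within a fold of 1.5 for the first step gave 361 and 213, of which 215 and 157 were shared with the main definition. For the 108 genes chosen by rule, 1715 of 1721 values under alternatives kept their direction and their side of the threshold. These values concern the change from day 7 to day 14 and not whether a gene moved first. Most of these genes were chosen from the same data for a large change or a small adjusted p, so nothing is read from that count. Sdc1, Krt5 and Krt14 no longer passed against a fold of 1.5, and Krt10 passed under 3 alternatives. No paired analysis was possible because the column headers carry no replicate number that days 7 and 14 share and could not be tied to the numbers in the titles. Depth limits the genes under 1 CPM in the higher day, 10 of the first rises and 34 of the first falls.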

Other observations

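Several gene lists outside the 4 classes were written after values were seen, and their counts are descriptions. Over all autosomal genes tested, 32.6% rose, 35.2% fell, 2.66% first rose and 1.78% first fell. Of 10 genes that restrain NF-kB signalling 9 rose and 4 first rose, and 8 rose with library totals alone. Nfkbia, which holds NF-kB in the cytoplasm, went from 809.9, 536 and 523 CPM at day 7 to 2201, 2076 and 2235 CPM at day 14 (1.801 ± 0.20 log2, adjusted p = 0.000161). Tnfaip3, an enzyme that trims ubiquitin from the same pathway, rose from 140.0, 57.4 and 83.5 to 458, 817 and 924 CPM and was uneven among the day 14 libraries. It was not a first mover without day 7 library 2 or 3. These genes are stimulus-induced and moved with the immediate early list, whose part was not tested.

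Of 27 known targets of p53, the factor that answers DNA damage and other stress, 18 rose, 2 fell and 10 first rose. With library totals alone 16 rose, 7 fell and 5 first rose. Sesn2, which restrains growth under stress, stood at 19.95, 22.9 and 26.9 CPM at day 1, 33.7, 22.01 and 23.6 CPM at day 7 and 173, 172 and 170.2 CPM at day 14 (2.698 ± 0.18, adjusted p = 5.5e-06). Bbc3, which promotes cell death, rose from 28.6, 23.3 and 23.8 to 150.3, 126 and 138 CPM. Cdkn1a, an inhibitor of cell cycle kinases, rose from 350.5, 249 and 293 to 827, 803 and 661 CPM (no first mover without day 7 library 2), and Mdm2, which degrades p53, from 63.4, 56.4 and 60.9 to 128, 124 and 129 CPM.

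The clock genes Per1 and Ciart first rose in the same step. Per1 was at 134, 91.7 and 130.1 CPM at day 1, 112, 99.2 and 103 CPM at day 7 and 534, 549 and 570.3 CPM at day 14 (2.398 ± 0.14, adjusted p = 1.09e-06), and was no first mover without day 1 library 5. Ciart, a repressor of the clock, went from 1.25, 1.43 and 0.8897 to 9.79, 8.79 and 9.53 CPM. The labels used here give no hour of collection, so its part was not tested.

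Of 61 replication-dependent histone genes 50 fell, 0 rose and 11 first fell. Their transcripts mostly lack a poly(A) tail and their sequences are near-identical, so single members are uncertain. Of 77 small nucleolar RNA genes 53 rose, 0 fell and 21 first rose, or 12 with library totals alone. Such genes lie in introns of host genes, and how their reads were assigned is not given in the sources used here. Among 339 zinc finger genes named Zfp, 72 rose, 159 fell, 4 first rose and 23 first fell. They are not in the transcription factor class.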
